A study of Mus musculus with 22 samples.

Results

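Transcripts of plasmacytoid dendritic cells, macrophages and neutrophils were followed in RNA from sorted splenic B cells. The 7 genes were Siglech and Flt3 for plasmacytoid dendritic cells, Lyz2 and Csf1r for macrophages and monocytes, Itgax for dendritic and myeloid cells in general, and S100a8 and S100a9 for neutrophils. They were taken by symbol, at any level, and all 7 were listed in each table, among 21880 genes in experiment 1, 26097 in experiment 2 and 25676 in culture. Their group differences in experiment 2, and that of Lyz2 in experiment 1, were among the values by which the genes were chosen by name. Those differences are therefore given as a description, without a p-value.

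Total RNA was sequenced from mouse immature B cells of the spleen (B220+CD93+ by sorting), in 22 libraries that fall into 7 groups, to compare cells from spleens or cultures with and without γδ T cells. In experiment 1, depleted Tcrd-GDL mice had received diphtheria toxin (3 libraries) and untreated Tcrd-GDL mice had not (3 libraries). In experiment 2 there were depleted Tcrd-GDL mice (2 libraries, numbered 4 and 5), a toxin control of Tcrd-H2BeGFP mice given the same toxin (3 libraries), and untreated Tcrd-GDL mice (5 libraries, numbered 4 to 8). Each toxin-treated mouse received 15 ng of toxin for every gram of weight at each of 2 injections, which were separated by 48 h, and was analysed on day 8 counted from the first. The series design describes these animals as depleted of γδ T cells, and the labels do not state whether Tcrd-H2BeGFP mice carry a toxin receptor. The culture used sorted B cells from Tcrd-H2BeGFP mice without toxin, either together with γδ T cells (3 libraries) or alone (3 libraries). The toxin control differed from the untreated group in strain as well as in treatment, and those effects cannot be told apart. The depleted group and the toxin control, given the same toxin, also differed in strain. Depletion and strain therefore cannot be told apart in that comparison either. Ages are not stated in the labels, nor whether the libraries of a group came from separate animals, so p-values measure the spread between libraries.

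Plasmacytoid dendritic cells are the interferon-producing dendritic cells of blood and lymphoid organs, and in mice they carry B220 on their surface, the antigen also used here to sort B cells. Splenic macrophages of the red pulp take up aged red cells and recycle their iron, and monocytes of the spleen and blood supply part of the macrophage pool. Neutrophils are short-lived phagocytes whose cytoplasm is filled with the S100A8 and S100A9 proteins, which form the calcium-binding complex calprotectin. Siglech encodes a sialic acid-binding lectin of mouse plasmacytoid dendritic cells, and Flt3 the receptor tyrosine kinase through which FLT3 ligand drives dendritic cell development. Lyz2 encodes lysozyme, Csf1r the receptor for macrophage colony-stimulating factor, and Itgax the integrin CD11c.

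S100a8 lies on chromosome 3 at 90668978 to 90670035 on the plus strand and S100a9 close by at 90692632 to 90695721 on the minus strand (GENCODE M21, GRCm38). Siglech spans 55768178 to 55778925 on chromosome 7, plus strand, and Flt3 147330741 to 147400489 on chromosome 5, minus strand. The promoter windows of these 4 genes are shown because each pair moved together in experiment 2. They run from 250 bases before to 50 bases after the annotated start, 5′ to 3′ on the strand of the gene, from RefSeq on GRCm38.p6. Capitals mark matches, on either strand, to TTGCNNAA (a C/EBP-type motif), GAGGAA (a PU.1-type motif, TTCCTC on the other strand) or TATAAA (the TATA box).
S100a8 (chr3:90668821-90669120, plus strand): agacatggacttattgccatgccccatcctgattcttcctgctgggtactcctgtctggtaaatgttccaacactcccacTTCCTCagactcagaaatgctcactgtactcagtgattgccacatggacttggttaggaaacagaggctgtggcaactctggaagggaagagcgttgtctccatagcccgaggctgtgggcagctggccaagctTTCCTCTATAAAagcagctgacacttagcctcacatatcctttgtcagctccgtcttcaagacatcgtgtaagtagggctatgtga
S100a9 (chr3:90695672-90695971, minus strand): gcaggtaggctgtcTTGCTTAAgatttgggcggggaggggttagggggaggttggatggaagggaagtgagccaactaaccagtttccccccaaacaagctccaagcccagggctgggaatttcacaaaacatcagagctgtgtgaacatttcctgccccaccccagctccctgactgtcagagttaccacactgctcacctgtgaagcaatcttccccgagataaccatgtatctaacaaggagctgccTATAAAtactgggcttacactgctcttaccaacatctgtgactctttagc
Siglech (chr7:55767934-55768233, plus strand): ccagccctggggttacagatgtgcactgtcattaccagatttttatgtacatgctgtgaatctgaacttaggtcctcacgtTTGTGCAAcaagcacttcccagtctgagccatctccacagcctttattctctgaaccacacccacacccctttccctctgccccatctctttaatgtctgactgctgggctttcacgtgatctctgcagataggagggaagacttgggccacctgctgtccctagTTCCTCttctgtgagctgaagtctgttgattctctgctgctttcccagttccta
Flt3 (chr5:147400440-147400739, minus strand): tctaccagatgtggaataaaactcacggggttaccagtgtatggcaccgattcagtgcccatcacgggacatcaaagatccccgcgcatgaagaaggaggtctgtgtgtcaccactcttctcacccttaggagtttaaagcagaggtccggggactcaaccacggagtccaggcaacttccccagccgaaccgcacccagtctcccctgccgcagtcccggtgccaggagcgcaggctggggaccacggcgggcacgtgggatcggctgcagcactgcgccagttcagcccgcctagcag
Both neutrophil windows held 1 TATAAA, beginning at position -30 from the annotated start in S100a8 and at position 1, the start itself, in S100a9. The C/EBP-type motif was found in S100a9 and the PU.1-type motif, at 2 places, in S100a8. In S100a8 the second TTCCTC ended directly before TATAAA, without overlap. Siglech held 1 match each of the C/EBP-type and PU.1-type motifs, and Flt3 held none of the 3 motifs. Flt3 had 18 CpG dinucleotides in its window, against 2 in Siglech, 4 in S100a8 and 2 in S100a9. Of 32851 RefSeq promoter windows, 10.8% held the C/EBP-type, 28.3% the PU.1-type and 13.6% the TATA motif, and a match is a description of letters, not of binding. The windows of Lyz2 and Itgax, which were also searched, held none of the 3.

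Between 9794413 and 20343954 reads per library were assigned to genes in experiment 1, between 22022330 and 36840455 in experiment 2, and between 17505909 and 28729574 in culture. The sorted cell was checked by B cell genes, of which Cd79a, a chain of the B cell receptor, averaged 6440 in depleted and 6319 in untreated libraries of experiment 1, as normalized count per kb of exon. In experiment 2 it averaged 15509 in depleted, 15858 in toxin control and 16489 in untreated libraries, and in culture 6848 with γδ T cells and 8169 alone. The genes of the sort antigens differed in experiment 2: Cd93 was lower in depleted against toxin control (log2 -0.86 ± 0.16) and higher in toxin control against untreated (0.81 ± 0.13), as was Ptprc, the gene of B220 (-0.50 ± 0.13 and 0.41 ± 0.10; limma, adjusted p of 0.00597, 0.00232, 0.0254 and 0.0163). Over all tested genes, 4.58% were called higher and 4.49% lower in depleted against toxin control, and 7.32% and 8.34% in toxin control against untreated. Cd93 and Ptprc were the 2 called of 10 B cell genes, and 9 of the 10 were lower in depleted than in toxin control libraries (median -0.25). Without depleted library 4 neither was called against the toxin control (adjusted p of 0.133 and 0.367 by limma), and the Ptprc call in toxin control against untreated was lost without toxin control library 2 or 3. The part of these differences in the values of the 7 genes was not tested. On the same per-kb scale Lyz2, the highest of the 7 genes, averaged 336 over experiment 2, 92.5 over experiment 1 and 27.4 over culture. Libraries 3 of both culture groups, and library 1 of the depleted group in experiment 1, had a female-specific Xist count far below the others (3.06 in the depleted library, against 9304 or more in the untreated libraries) and Ddx3y, a Y-linked gene, at 569 or more. Depleted library 2 of experiment 1 had Ddx3y at 40.0 beside a high Xist count, against 0 in the untreated libraries. Values are normalized read counts as deposited, and log2 differences were taken after adding 1 to each value and are given ± SE, so that changes of genes with few reads come out too small. In bulk RNA, fewer cells of a type and less RNA per cell cannot be told apart.

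Among the 3 groups of experiment 2, Siglech and Flt3 had their highest group mean in the depleted libraries. Siglech had 274 and 115 normalized counts in depleted libraries 4 and 5, 62.9, 49.2 and 44.4 in toxin control libraries 1 to 3, and 20.7, 157, 17.5, 26.7 and 41.3 in untreated libraries 4 to 8. Both depleted libraries lay above every toxin control library, but untreated library 5 lay between them. The log2 difference was 2.25 ± 0.60 for depleted against untreated and 1.77 ± 0.65 for depleted against toxin control. Without untreated library 5 the first was 2.77, and without depleted library 4 the values were 1.63 and 1.15. The highest Siglech library of experiment 2 was 15.7-fold over the lowest, a span exceeded by S100a9 (26.2-fold) among the 6 genes with reads in every library.

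Flt3 had 112 and 73.5 in depleted libraries, 35.0, 42.0 and 38.8 in toxin control libraries, and 22.4, 62.5, 21.2, 38.7 and 42.2 in untreated libraries. The depleted group did not overlap either of the others. Depleted against untreated gave a log2 difference of 1.37 ± 0.39, and 1.22 ± 0.42 was found for depleted against toxin control. The 3 libraries highest for Flt3 were also the 3 highest for Siglech, namely depleted 4, depleted 5 and untreated 5. Between toxin control and untreated libraries the log2 difference was 0.49 ± 0.52 for Siglech and 0.15 ± 0.34 for Flt3, each smaller than its SE.

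**Figure D1:**
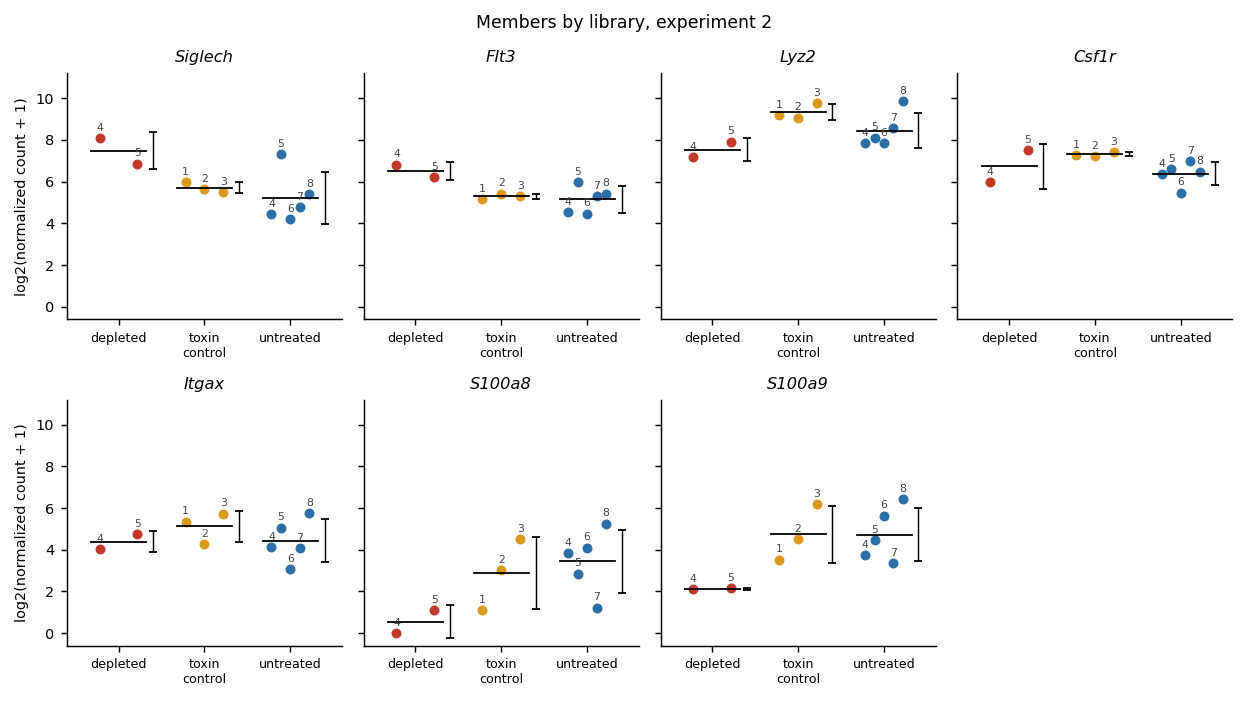
Each panel plots log2(normalized count + 1) of 1 gene in the 10 libraries of experiment 2, with depleted, toxin control and untreated libraries from left to right. Points are libraries with their numbers, lines are group means and bars are 1 SD. Siglech and Flt3 are highest in depleted libraries 4 and 5 and untreated library 5, and S100a9 lies at 3.29 and 3.50 normalized counts in the depleted libraries, below all others.

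The wider plasmacytoid dendritic cell list held 17 genes, 15 of them besides Siglech and Flt3, and 14 of the 15 had a mean of at least 10 in experiment 2. Of these 14, 0 passed the test in either direction for depleted against untreated (limma, Benjamini-Hochberg over 13364 genes). A positive log2 difference was found in 13, with a median of 0.50. Over all tested genes 49.5% were positive and the median was -0.0024. The marker lists were chosen with earlier results of these data known, and the genes of a list share libraries. Such counts and medians are therefore a description and not a test. In that comparison 0.127% of all tested genes were called higher and 0.172% lower. Of the 14, 7 were highest in depleted library 4 and 3 in untreated library 5. The 3 largest log2 differences, named after their values were seen, included Cd300c (54.8 and 17.5 in depleted libraries, 2.5 to 18.7 in untreated libraries, log2 1.93 ± 0.76, adjusted p 0.390 by limma) and Smim5 (47.1 and 24.5 in depleted libraries, 5.0 to 23.9 in untreated libraries, log2 1.63 ± 0.63, adjusted p 0.376 by limma). Klk1, a kallikrein protease gene, had 36.2 and 16.3 in depleted libraries and 0 to 35.4 in untreated libraries (log2 1.65 ± 1.06, adjusted p 0.652 by limma). Also named after their values were seen, Ccr9, a chemokine receptor of plasmacytoid dendritic cells and gut-homing lymphocytes, was at 182 and 79.3 in depleted libraries and 27.4 to 102 in untreated libraries. Lair1, an inhibitory collagen receptor, was at 219 and 105 in depleted libraries and 26.2 to 142 in untreated libraries.

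Against the toxin control, 0 of the 14 were called higher and 1 lower, 11 were positive and the median was 0.60. The gene called lower was Tcf4, a transcription factor gene needed for plasmacytoid dendritic identity and also expressed in B cells (log2 -0.42 ± 0.13, adjusted p 0.0450 by limma). Tcf4 was also the gene called higher among the 14 for toxin control against untreated (log2 0.36 ± 0.10, adjusted p 0.0249 by limma). With libraries left out in turn, the first Tcf4 call held in 1 of 5 fits and the second in 2 of 8, with adjusted p of up to 0.449 and 0.108 by limma. Over all tested genes, 4.58% were called higher and 4.49% lower in depleted against toxin control, and 7.32% higher and 8.34% lower in toxin control against untreated. The comparisons of experiment 2 share libraries. The summed level of the list does not follow Siglech, since Rnase6 alone, a ribonuclease gene, averaged 4812 and Tcf4 2202, so that the sum without Siglech and Flt3 was 7345 to 8885 in depleted, 7925 to 8574 in toxin control and 6915 to 8764 in untreated libraries.

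**Figure D2:**
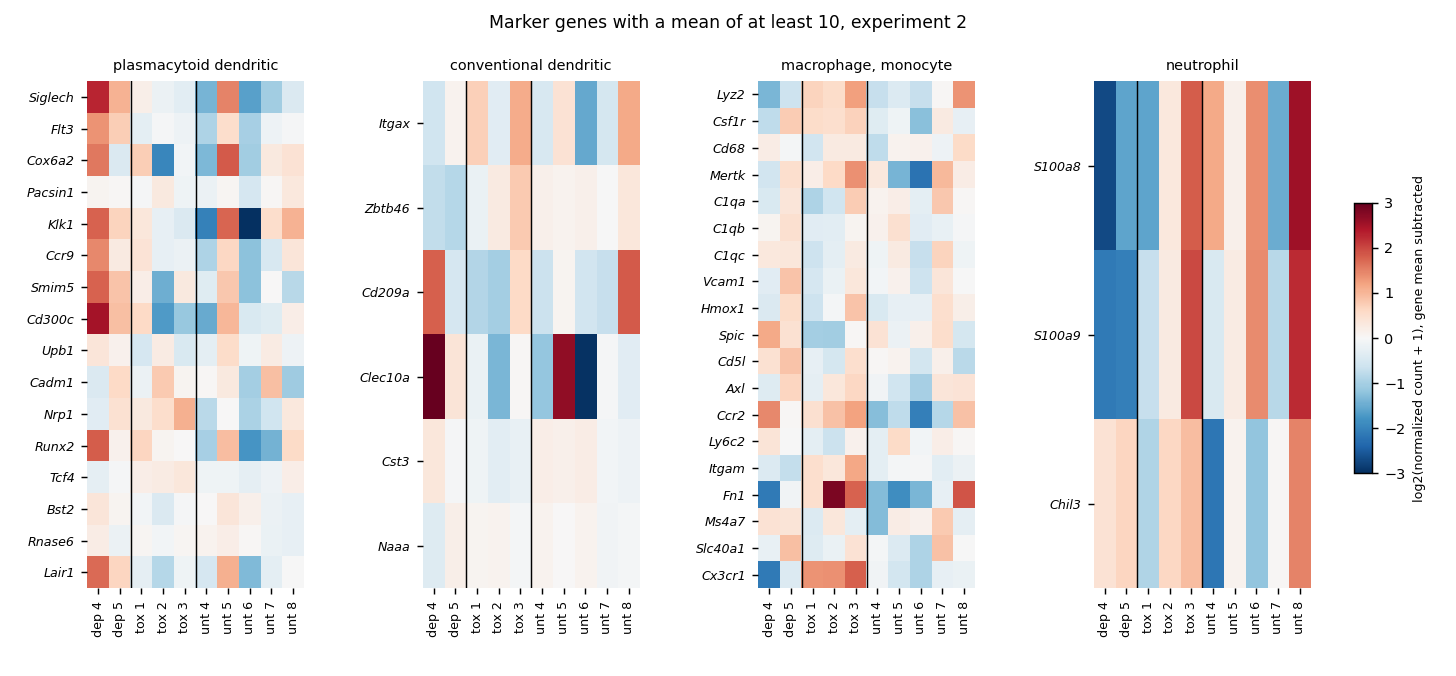
Heat maps of the reported marker genes with a mean of at least 10 in experiment 2, 1 row per gene and 1 column per library (dep, depleted; tox, toxin control; unt, untreated), coloured by log2(normalized count + 1) minus the mean of the gene over the 10 libraries. Depleted library 4 and untreated library 5 share high values over several plasmacytoid dendritic genes, and toxin control library 3 and untreated library 8 over S100a8, S100a9 and Lyz2.

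In experiment 1 Siglech was close to the limit of counting. It had 1.53, 3.16 and 3.37 normalized counts in depleted libraries and 1.79, 2.42 and 5.93 in untreated libraries, from 8 and 12 reads in all. Flt3 had 10.7, 29.5 and 14.3 in depleted libraries against 11.3, 14.5 and 16.1 in untreated libraries. The groups overlapped for both genes, and the log2 difference of Flt3 was 0.25 ± 0.43 (adjusted p 0.883 by limma over 11701 genes). Of all genes tested in that experiment 0% were called (1033 had an unadjusted p under 0.05, edgeR called 0 and DESeq2 31). The 6 other plasmacytoid dendritic genes tested there had a median log2 difference of 0.10, and 0 were called in either direction. The difference between the experiments in the Siglech response was not tested. In experiment 1 Siglech averaged 3.03, below the minimum mean of 10, and was left out of the main test there. As reads per 1000000 reads, Siglech had a median of 0.233 over the 6 libraries of experiment 1, 1.95 over the 10 of experiment 2 and 0.714 over the 6 of culture.

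In culture Siglech had 11.7, 19.2 and 15.8 with γδ T cells and 15.0, 13.4 and 9.96 alone. It spanned 1.93-fold from the lowest to the highest library, against 2.10-fold for Csf1r, 6.57-fold for Flt3 and 13.03-fold for Lyz2, the other genes with reads in all 6 libraries. The log2 difference was 0.26 ± 0.40 (adjusted p 0.856 by limma over 12386 genes, of which 2.16% were called), and the groups overlapped. Without library 3 with γδ T cells it was 0.23, and without library 3 alone 0.10. Flt3 averaged 9.70 over the culture, just below the minimum mean of 10, with 14.6, 2.22 and 7.90 with γδ T cells and 13.1, 11.7 and 8.72 alone. Of 9 further plasmacytoid dendritic genes tested in culture, 0 were called and 6 were lower with γδ T cells, with a median of -0.26.

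Lyz2 was the most abundant of the 7 genes, for each kb of exon, in all 3 tables. In experiment 2 it had 143 and 241 in depleted libraries, 584, 539 and 864 in toxin control libraries, and 230, 277, 227, 377 and 941 in untreated libraries. All toxin control libraries lay above both depleted libraries, and untreated library 8 was the highest of the experiment. Log2 differences were -1.80 ± 0.44 for depleted against toxin control, -0.91 ± 0.40 for depleted against untreated and 0.89 ± 0.35 for toxin control against untreated. Without untreated library 8 the last of these was 1.25 and the difference for depleted against untreated was -0.55.

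Csf1r divided the depleted libraries. It had 61.4 and 181 in depleted libraries 4 and 5, 155, 149.5 and 172 in toxin control libraries, and 81.3, 95.8, 43.7, 127 and 88.7 in untreated libraries. Depleted library 4 lay among the untreated libraries and depleted library 5 above all others. The toxin control libraries all lay above the untreated libraries, with a log2 difference of 0.93 ± 0.33. For depleted against untreated it was 0.35 ± 0.37, which was 1.12 without depleted library 4 and -0.42 without depleted library 5. Against the toxin control it was -0.58 ± 0.41, which was 0.19 without library 4 and -1.35 without library 5.

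Itgax had 15.4 and 25.7 in depleted libraries, 39.6, 18.4 and 52.2 in toxin control libraries, and 16.6, 32.3, 7.48, 16.0 and 53.4 in untreated libraries. The 3 groups overlapped. The log2 difference was -0.04 ± 0.60 for depleted against untreated, -0.74 ± 0.65 for depleted against toxin control and 0.69 ± 0.52 for toxin control against untreated. Its 2 highest libraries, untreated 8 and toxin control 3, were also the highest 2 for Lyz2. The other conventional dendritic genes with a mean of at least 10 numbered 5 in experiment 2, of which 0 were called in any of its 3 comparisons, with medians of 0.08, 0.37 and -0.14 in the order depleted against untreated, depleted against toxin control and toxin control against untreated. Depleted 4, depleted 5 and untreated 5 were the 3 highest libraries for 1 of these 5 and for 3 of the 14 further plasmacytoid dendritic genes. The 1 was Clec10a, named after its values were seen, with 61.4, 9.33 and 48.9 in these libraries.

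Among 22 further macrophage and monocyte genes, 18 had a mean of at least 10 in experiment 2. For depleted against untreated 0 were called, 13 were positive and the median was 0.29. For depleted against toxin control 1 was called higher and 2 lower, against 4.58% and 4.49% of all tested genes. Spic, a transcription factor gene of red pulp macrophages, rose with 92.1 and 57.1 in depleted libraries against 19.8, 19.5 and 42.3 in toxin control libraries (log2 1.48 ± 0.42, adjusted p 0.0397 by limma). Itgam, which encodes CD11b, fell to 61.4 and 49.0 in depleted libraries, against 115, 104 and 185 in toxin control libraries (log2 -1.24 ± 0.27, adjusted p 0.0149 by limma). Cx3cr1, the fractalkine receptor gene of patrolling monocytes, fell to 1.1 and 5.8 in depleted libraries, against 22.1, 22.5 and 30.3 in toxin control libraries (log2 -2.77 ± 0.67, adjusted p 0.0214 by limma). Without depleted library 4 none of the 3 was called (adjusted p of 0.433 for Spic, 0.124 for Itgam and 0.345 for Cx3cr1 by limma), nor were they with only the 2 groups fitted. Of the 5 fits without 1 library, Spic was called in 2, Itgam in 3 and Cx3cr1 in 1, with 3 in which its mean fell below 10.

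For toxin control against untreated, 4 of the 18 were called higher and 0 lower, against 7.32% and 8.34% of all tested genes. Of the 18, 11 had a positive and 7 a negative log2 difference, with a median of 0.08. In log2 terms Itgam rose by 0.85 ± 0.22 and Cx3cr1 by 1.91 ± 0.53 (limma, adjusted p of 0.0186 and 0.0259). Ccr2, a receptor of inflammatory monocytes, rose by 1.68 ± 0.50 and the fibronectin gene Fn1, which was named although it ranks below the first 3 by p, by 2.28 ± 0.75 (limma, adjusted p of 0.0337 and 0.0482). With 8 libraries left out in turn, Itgam was called in 6 fits, losing the call without toxin control library 2 or 3, Cx3cr1 in 3 of the 5 in which it could be tested, and Ccr2 and Fn1 in 2 each. Among the 7 negative were the macrophage genes C1qa, C1qb and C1qc (complement), Vcam1 (adhesion) and Spic, chosen after their values were seen. Their log2 differences were -0.42, -0.19, -0.21, -0.08 and -0.76, none of them called. All 11 tested T cell genes had a positive log2 difference for toxin control against untreated (median 1.38). All were negative for depleted against toxin control (median -1.42). For depleted against untreated 5 of the T cell genes were positive and 6 negative (median -0.04). Their summed level was 762 to 982 in depleted, 1464 to 2254 in toxin control and 645 to 1843 in untreated libraries, with untreated library 8 the highest of its group, and 6 of 11 T cell genes were called higher in toxin control against untreated, of which Lat, a signalling adaptor gene, was called in all 8 fits without 1 library, Tcf7 in 7 and the other 4 in 1 or 2. NK cell genes summed to 87.7 to 202 in depleted, 327 to 480 in toxin control and 147 to 514 in untreated libraries. The part of these cells in the Lyz2, Itgam and Cx3cr1 values was not tested.

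In experiment 1 Lyz2 had 68.8, 31.6 and 76.7 in depleted libraries against 69.8, 229 and 254 in untreated libraries. Untreated library 1 lay within the depleted range, and the other untreated libraries above it. The log2 difference was -1.52 ± 0.48, which was -1.68 without depleted library 1 and -2.11 without untreated library 1. Csf1r had 21.4, 58.9 and 112 in depleted libraries against 38.2, 103 and 123 in untreated libraries, and the groups overlapped (log2 -0.58 ± 0.57, adjusted p 0.786 by limma). Without depleted library 1 the Csf1r difference was 0.05.

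Itgax had 1.53, 3.16 and 10.1 in depleted libraries and 2.98, 3.63 and 11.02 in untreated libraries of experiment 1, too few for the test. Of 14 further macrophage genes tested there, 0 were called in either direction, 12 were lower in depleted libraries and the median log2 difference was -0.35. The summed level of the macrophage list without Lyz2 and Csf1r was 381 to 810 in depleted and 416 to 1057 in untreated libraries. Depleted library 1 and untreated library 1 were the lowest library of their group for Csf1r and Itgax.

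Several macrophage transcripts had few reads in the cultured cells. The 3 highest of the list there were Hmox1, Cd68 and Ly6c2, with means of 73.4, 48.9 and 44.1. Besides Lyz2, 6 genes of the list were tested, of which 0 were called, against 2.16% of all tested genes. Of these, 4 were positive and 2 negative, with a median of 0.05. Csf1r had 0.97, 1.48 and 1.75 with γδ T cells and 0.93, 0.84 and 1.25 alone, which is 1 or 2 reads per library. Vcam1, C1qc and Mertk, a receptor gene for dying cells, had reads in 1 library each (genes named after their values were seen). Lyz2 had 5.83, 36.3 and 27.2 with γδ T cells and 60.8, 10.05 and 76.0 alone. The groups overlapped and the log2 difference was -0.96 ± 0.72 (adjusted p 0.665 by limma). Without library 3 with γδ T cells the Lyz2 difference was -1.23, and without library 3 alone it was -0.44. Itgax had 0, 9.62 and 5.26 with γδ T cells and 2.80, 0.84 and 1.25 alone, from 19 and 5 reads.

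**Figure D3:**
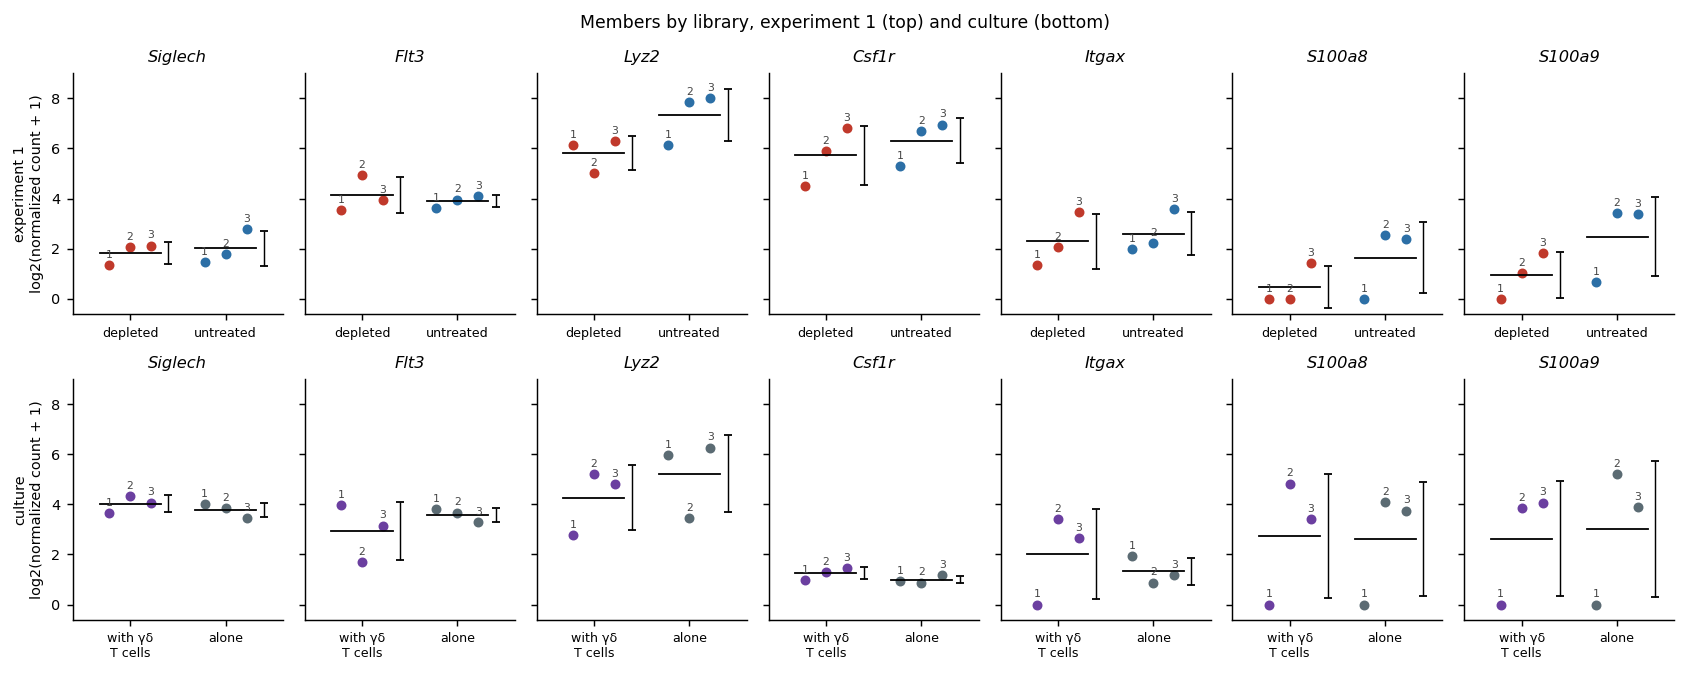
Each panel plots log2(normalized count + 1) of 1 gene by library, with experiment 1 in the upper row (depleted left of untreated) and culture in the lower row (with γδ T cells left of alone). Points are libraries with their numbers, lines are group means and bars are 1 SD. All groups overlap, library 1 of both culture groups has 0 reads of S100a8 and S100a9, and Csf1r in culture lies at 1 or 2 reads per library.

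Of the neutrophil genes, S100a9 was lowest in both depleted libraries of experiment 2, and S100a8 was lowest in depleted library 4 only. S100a9 had 3.29 and 3.50 in depleted libraries, 10.5, 21.5 and 72.6 in toxin control libraries, and 12.4, 20.8, 48.6, 9.35 and 86.1 in untreated libraries. The depleted libraries lay below all 8 others. They held 6 reads of S100a9 in all, against 133 in the toxin control and 181 in the untreated libraries. Log2 differences were -2.59 ± 0.77 for depleted against untreated and -2.60 ± 0.84 for depleted against toxin control, and 0.01 ± 0.67 for toxin control against untreated.

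S100a8 had 0 and 1.17 in depleted libraries, 1.17, 7.17 and 21.8 in toxin control libraries, and 13.3, 6.25, 16.2, 1.34 and 37.0 in untreated libraries. Depleted library 5 and toxin control library 1 overlapped at 1 read each. Untreated library 7 also held 1 read, and lay above depleted library 5 only through its larger library factor. With 1 read in the depleted group and 79 in the untreated group, the ratio of pooled reads after scaling for the library factors was 0.0349 (exact 95% interval 0.000873 to 0.200, for counting error only). S100a9 gave 0.0914 (0.0331 to 0.203) in the same way. These intervals leave out the spread between libraries, which in the untreated group ran from 1.34 to 37.0 for S100a8. Both genes were chosen with these differences known, so the intervals are a description and not a test.

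Most other neutrophil genes were too low to test. Of 17 further genes of the list, 1 had a mean of at least 10 in experiment 2, Chil3, which encodes a chitinase-like protein of neutrophils and macrophages, with 25.2 and 29.2 in depleted libraries, 9.3 to 35.9 in toxin control libraries and 3.3 to 53.4 in untreated libraries. It was not called in any comparison of experiment 2. Ly6g, which encodes a defining surface antigen of mouse neutrophils, had reads in 3 of the 10 libraries and 0 in both depleted libraries. Granule genes were also patchy between libraries. Elane, the neutrophil elastase gene, had 14.8 in toxin control library 3 and 0 in the other 9, and Ltf, the lactoferrin gene, had 18.3 there, 25.0 in untreated library 8 and 0 in both depleted libraries (both genes named after their values were seen). The summed level of the list without S100a8 and S100a9 was 35.1 to 53.6 in depleted, 56.0 to 203 in toxin control and 28.2 to 158 in untreated libraries.

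In experiment 1 S100a8 had 0, 0 and 1.68 in depleted libraries and 0, 4.84 and 4.24 in untreated libraries, from 2 and 9 reads. The ratio of pooled reads was 0.293, with an exact 95% interval of 0.0308 to 1.42 that includes 1. S100a9 had 0, 1.05 and 2.53 in depleted libraries and 0.60, 9.69 and 9.32 in untreated libraries, from 4 and 20 reads (ratio 0.264, 0.0656 to 0.788, counting error only). The groups overlapped for both genes, through untreated library 1. No gene of the neutrophil list had a mean of at least 10 in experiment 1.

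In culture S100a8 had 0, 27.4 and 9.65 with γδ T cells and 0, 15.9 and 12.5 alone (log2 0.14 ± 1.25, adjusted p 0.980 by limma). S100a9 had 0, 13.3 and 15.8 with γδ T cells and 0, 36.0 and 13.7 alone (log2 -0.39 ± 1.29, adjusted p 0.940 by limma). Library 1 of both groups had no read of either gene, and the other 4 libraries had reads of both. The spread within a group exceeded the difference between groups for both genes.

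**Figure D4:**
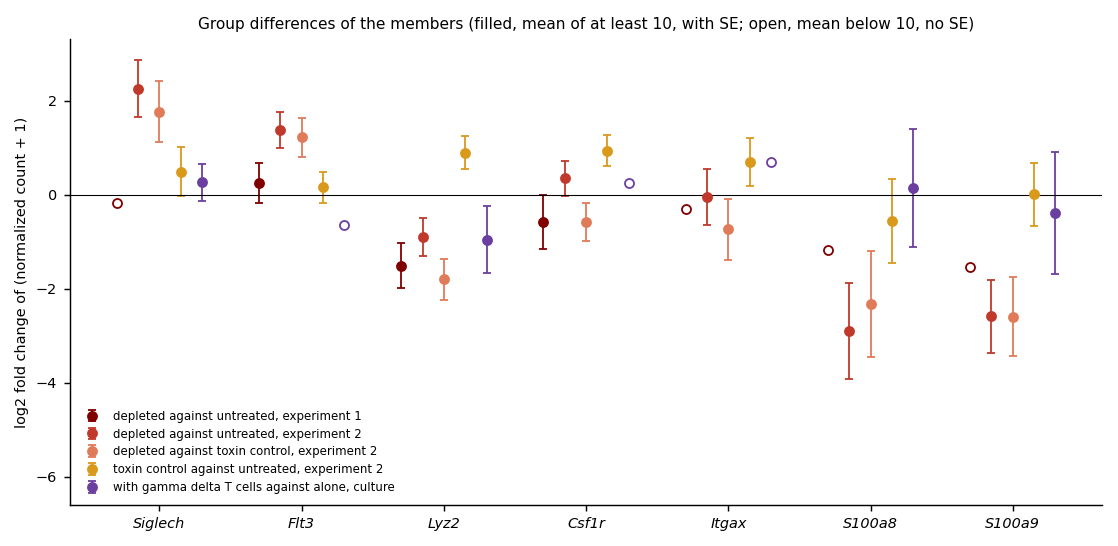
Log2 fold changes of (normalized count + 1) of the 7 genes, from left to right for depleted against untreated in experiment 1, depleted against untreated, depleted against toxin control and toxin control against untreated in experiment 2, and with γδ T cells against alone in culture. Filled points have a mean of at least 10 and bars of 1 SE, and open points have a lower mean and no SE. In experiment 2 Siglech and Flt3 lie above 0 and S100a8 and S100a9 below 0 in both comparisons of the depleted group.

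Counted over the 7 genes, groups did not overlap for 0 in experiment 1, where 15.2% of all tested genes did not overlap, and for 0 in culture, where the background was 18.4%. In experiment 2 the groups did not overlap for 3 of 7 in depleted against untreated (Flt3 higher, S100a8 and S100a9 lower; background 12.3%), 4 of 7 in depleted against toxin control (Siglech and Flt3 higher, Lyz2 and S100a9 lower; background 42.1%) and 1 of 7 in toxin control against untreated (Csf1r higher; background 23.4%). For S100a8 the separation from untreated library 7 rested on the library factors, since that library and depleted library 5 held 1 read each. The genes were picked with these comparisons known, so nothing is read from the counts. At a mean of at least 10, 3 of the 7 were tested in experiment 1, all 7 in experiment 2 and 4 in culture, with S100a8 just inside at 10.5 and 10.9 in experiment 2 and culture.

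The order of the genes changed between the tables. As mean normalized count per kb of exon, experiment 2 ran from Lyz2 (336) through S100a9 (55.3), Siglech (23.9), Csf1r (20.0), S100a8 (15.2) and Flt3 (7.90) to Itgax (5.77), and only the step below Lyz2 exceeded the larger SD of the neighbouring pair. Experiment 1 ran from Lyz2 (92.5) through Csf1r (13.2), S100a9 (7.40), Flt3 (2.60), S100a8 (2.59) and Itgax (1.13) to Siglech (0.90), again with only the step below Lyz2 beyond that spread. In culture Lyz2 (27.4), S100a9 (25.2) and S100a8 (15.7) were not apart, Siglech (4.19) exceeded Flt3 (1.57) and Flt3 exceeded Itgax (0.69) beyond the spread, and Csf1r (0.21) came last.

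The genes with the most similar profiles over the 22 libraries were found among 11474 genes tested in all 3 tables, as the smallest root mean square difference of log2(value + 1) centred within each table. For Siglech they were Ppfia4 (0.56), Mpeg1 (0.63), which encodes the pore-forming protein perforin-2 of macrophages and other immune cells, and Rbks (0.63), against 0.86 for the spread of Siglech about its own table means. For Lyz2 they were L1cam (0.72), Amica1 (0.74) and Kif14 (0.77), against 1.03. For S100a9 they were 4833422M21Rik (1.25), App (1.28) and Derl3 (1.30), against 1.60. S100a8 was not among the genes searched, because its mean in experiment 1 was 1.79, so its likeness to S100a9 was not measured here.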

How the data were processed

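Per the labels, RNA of sorted B220+CD93+ cells was isolated on Qiagen micro columns (RNeasy Plus), and libraries followed a stranded SMART Seq protocol for total RNA. Reads were processed with bcl2fastq and STAR 2.5.2b on mm10, per the submitters' processing notes. Nothing in the sources used here gives the read counter, its use of strand or the scaling method. The deposited values are normalized counts (a scaled signal per gene, as the authors name the files), in 3 tables normalized separately. Values were whole multiples of 1 read (100% within 0.01), so reads were recovered from them.

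The 7 genes and the 10 marker lists (120 genes) were chosen with earlier results of these data known. Genes averaging 10 or more were tested within each table with limma 3.58.1 (R 4.3.3, trend) after log2(value + 1), at a Benjamini-Hochberg adjusted p under 0.05, with the 3 groups of experiment 2 fitted together. P-values of the 7 genes are not given for experiment 2, nor for Lyz2 in experiment 1. Alternatives were a pseudocount of 5, no filter, TMM scaling, edgeR 4.0.16 and DESeq2 1.42.0 on recovered reads, single libraries left out, 2 groups alone and a replicate block. Named were the 7 genes, up to 3 called genes per list and comparison, the 3 highest of a list, and nearest profiles. One macrophage gene counted in its list is not reported here by name. Limma was tested on simulated data. Gene positions came from GENCODE M21 (GRCm38) and promoters from RefSeq. Pooled-read intervals are 95% and cover counting error only.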

Additional observations from a re-analysis of the deposited data

Results flagged for a closer look

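In the untreated group of experiment 2, the only group with more than 3 libraries, 2 values stood apart from the other 4 by Dixon's criterion on the normalized counts. Siglech was at 157 in untreated library 5, with a gap to the next library of 0.829 of the whole range, and Lyz2 at 941 in untreated library 8, with a gap of 0.790, against a critical value of 0.710. On the log2 scale the gaps were 0.614 and 0.644, below that value. For normally distributed values, chance passes this criterion in about 1 in 20 groups for each gene looked at. Whether that rate holds for normalized counts was not tested.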

How the results depend on the processing

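Of the log2 differences in experiment 2, those of Siglech, Flt3, Lyz2, S100a8 and S100a9 for depleted against untreated and against toxin control kept their sign under every alternative in which the gene was fitted. For S100a8 these were 11 and 9 settings, against 14 and 11 for the other genes, since its mean was below 10 in the rest. The differences of Siglech ranged from 1.61 to 2.87 and from 1.15 to 2.39, those of S100a9 from -3.38 to -1.91 and from -3.37 to -1.87. Csf1r changed sign when 1 depleted library was left out, and Itgax for depleted against untreated in 3 of 14 settings (-0.40 to 0.31). Leaving out single libraries moved Flt3 in experiment 1 from -0.15 to 0.54 and Csf1r there from -1.12 to 0.048, and in culture S100a8 from -1.17 to 1.51 and S100a9 from -1.91 to 0.93. Low reads limit S100a8 and S100a9 in all tables.

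Counts of called genes over whole tables depended on single libraries. Left out in turn, they gave 0 to 1092 in experiment 1 (1092 without depleted library 1), 0 to 579 for depleted against untreated in experiment 2 (0 without depleted library 4, 579 without library 5, against 40), 42 to 2712 for depleted against toxin control (against 1212), 196 to 2996 for toxin control against untreated (196 without toxin control library 2, against 2093) and 103 to 678 in culture (against 267). Without the filter 2 genes were called in experiment 1 and 725 for depleted against toxin control. DESeq2 called 31 in experiment 1 and 137 for depleted against untreated in experiment 2. With only the 2 groups compared, the counts for the depleted group were 5 against untreated and 442 against toxin control. The share called higher for depleted against untreated was 70.6% with edgeR and 42.5% with limma. The causes were not tested.

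Replicate numbers are shared by groups. The deviations of libraries with the same number correlated at -0.11 to 0.046 in experiments 1 and 2, and at 0.20, -0.037 and 0.23 for numbers 1, 2 and 3 in culture. In culture both libraries 1 had no S100a8 or S100a9 read and both libraries 3 a low Xist count, but not every pair of numbers exceeded 0.1 and the labels do not state a pairing. A replicate block gave 0 calls in experiment 1, 153 in experiment 2 for depleted against untreated (on the 4 libraries that share a number) and 448 in culture. It could not be fitted for the comparisons with the toxin control, which share no pair of numbers with the other groups.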
